A study of Homo sapiens with 2 samples.

Results

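A set of 10 classically imprinted genes was followed through MBD2 knockdown in TFK1, an established human cholangiocarcinoma cell line. They were taken by symbol, 1 row each: H19, IGF2, MEG3, PEG3, PEG10, KCNQ1OT1, SNRPN, MEST, PLAGL1 and GRB10, which are 10 of the 56638 genes in the tables. Bulk RNA was sequenced from cells with knockdown of MBD2 by a short hairpin RNA (shMBD2) and from cells with a negative control hairpin (shNC), with no other treatment and 1 library per condition. Both hairpins were carried by a lentiviral vector, and the cells were selected with a drug, puromycin or G-418. The labels do not say which of the study's 2 MBD2 hairpins the sequenced library carries. Because each condition has 1 library, no difference given here has a replicate check and no p-value is given. The libraries held 14728814 counts (shMBD2) and 14467406 counts (shNC), and 17545 genes had at least 10 counts summed over both.

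An imprinted gene is expressed mainly from the allele of 1 parent, because the germ line leaves DNA methylation on 1 parental copy of a control region and that mark is kept in every later cell division. Long noncoding RNAs such as H19, MEG3 and KCNQ1OT1 lie in the same clusters as the protein-coding genes that respond to the same control region. MBD2 is a protein that binds methylated CG dinucleotides and recruits the NuRD co-repressor complex. H19 and IGF2 belong to the fetal growth program of the liver and are low in most adult tissues. Read counts do not separate the parental alleles, and DNA methylation was not measured in these libraries, so a level here is the sum of both alleles.

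MBD2 itself had 365 counts in shMBD2 and 1013 in shNC, or 15.6 and 44.6 TPM, a level per transcript length that can be compared between genes. The difference is given as log2FC, the log2 ratio of shMBD2 over shNC after TMM scaling, with a 95% interval from the split of the reads that covers counting error only. For MBD2 the log2FC was -1.48 (-1.66 to -1.31), so the library labelled shMBD2 had the lower MBD2 level. In bulk RNA, fewer cells that express a gene and less RNA per cell cannot be told apart. The biliary epithelial markers KRT7, KRT19, EPCAM, SOX9 and CDH1 had at least 10 counts in sum, with KRT7 at 1160 and 1327 TPM, and their log2FC lay between -0.73 and 0.75. Of 6 leukocyte markers none exceeded 1 count, and 3 of them (CD52, CD3E and LYZ) were at 0 in both libraries. Markers of fibroblasts (4 genes) and hepatocytes (4 genes) had at most 6 counts each.

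The genes lie on 6 chromosomes, and their positions are given here from GENCODE 29 (GRCh38), matched by Ensembl identifier, because the positions in the tables differ from it for all 10 genes and the tables name no build, while the submitters' processing notes name GRCh38.p13. H19 (ENSG00000130600) is a noncoding RNA gene on the minus strand at chr11:1995176-2001470, and IGF2 (ENSG00000167244) lies on the same strand at chr11:2129112-2149603. KCNQ1OT1 (ENSG00000269821), annotated as antisense, lies further along that arm at chr11:2608328-2699994. MEG3 (ENSG00000214548) is a long intergenic noncoding RNA gene on the plus strand at chr14:100779410-100861031. Chromosome 7 carries PEG10 (ENSG00000242265, chr7:94656325-94669695, plus), MEST (ENSG00000106484, chr7:130486171-130506465, plus) and GRB10 (ENSG00000106070, chr7:50590063-50793462, minus). The remaining genes are SNRPN (ENSG00000128739, chr15:24823637-24978723, plus), PLAGL1 (ENSG00000118495, chr6:143940300-144064599, minus) and PEG3 (ENSG00000198300, chr19:56810077-56840728, minus).

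Since MBD2 reads methylated CG, 1 promoter window is shown, with every CG in capitals, for each of the 3 genes with the highest log2FC. H19 had 1 window, and for MEG3 and MEST the window with the most CG was taken. A window runs from 250 bases before to 50 bases after a RefSeq start site, in GRCh38.p14, and is written 5′ to 3′ on the gene's strand. The H19 window is chr11:2001217-2001516 (minus), the MEG3 window chr14:100825858-100826157 (plus) and the MEST window chr7:130491835-130492134 (plus).
H19 promoter: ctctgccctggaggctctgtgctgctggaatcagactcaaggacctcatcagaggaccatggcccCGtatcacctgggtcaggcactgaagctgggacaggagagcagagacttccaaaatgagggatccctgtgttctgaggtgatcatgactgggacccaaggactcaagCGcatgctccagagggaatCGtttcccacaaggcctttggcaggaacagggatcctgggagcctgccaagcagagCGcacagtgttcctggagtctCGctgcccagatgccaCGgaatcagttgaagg
MEG3 promoter: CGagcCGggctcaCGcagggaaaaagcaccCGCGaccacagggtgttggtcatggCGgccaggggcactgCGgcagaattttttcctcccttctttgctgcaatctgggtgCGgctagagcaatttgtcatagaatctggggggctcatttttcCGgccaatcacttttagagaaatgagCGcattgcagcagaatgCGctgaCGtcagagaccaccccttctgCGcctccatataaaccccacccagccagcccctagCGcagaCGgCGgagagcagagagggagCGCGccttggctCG
MEST promoter: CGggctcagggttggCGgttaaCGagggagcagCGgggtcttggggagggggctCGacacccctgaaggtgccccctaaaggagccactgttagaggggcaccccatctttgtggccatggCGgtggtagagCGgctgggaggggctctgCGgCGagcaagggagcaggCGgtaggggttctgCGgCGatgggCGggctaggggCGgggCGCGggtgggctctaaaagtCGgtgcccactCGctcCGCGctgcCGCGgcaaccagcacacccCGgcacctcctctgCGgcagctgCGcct
The 3 windows hold 6 CG (H19), 19 CG (MEG3) and 25 CG (MEST). Over all 35116 RefSeq windows of 300 bases the median was 14 CG, and 96.0% held at least 1. As many CG as in the H19 window were held by 66.3% of all windows, as many as in the MEG3 window by 42.9%, and as many as in the MEST window by 32.0%. Windows were present for 6 of the 10 genes (H19, MEG3, MEST, GRB10, PLAGL1 and SNRPN), 23 windows in all. The most CG lay in windows of GRB10 (49 and 44 CG) and PLAGL1 (39 CG), which are not shown. The log2FC of these genes were 0.32 and 0.15. That they lie below the 3 genes shown was fixed by the choice of those 3 for the highest log2FC. SNRPN windows held at most 18 CG, with a log2FC of 0.027. A CG is a letter pair in the reference, and whether it was methylated in these cells was not measured.

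H19 is also the host of a microRNA. The hairpin of MIR675 (chr11:1996759-1996831, minus, GRCh38.p14) matched 4 of the 12 H19 transcripts in GENCODE 29, within exons. Its mature products are shown with the seed, bases 2 to 8, in capitals, because that is the part that pairs with targets.
hsa-miR-675-5p: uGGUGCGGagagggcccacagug
hsa-miR-675-3p: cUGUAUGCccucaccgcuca
The 2 arms have different seeds. These libraries count host transcripts, not mature microRNAs, so no level of miR-675 is given.

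The hairpin targets in the study's supplement were searched in the transcripts of the 10 imprinted genes, to see whether either hairpin has a full match there.
MBD2-sh1 target: gaaatgtagcacttacgtaaa
MBD2-sh2 target: gtacgcaagaaattggaagaa
Neither 21-base target occurred in any GENCODE 29 transcript of the 10 genes. Among the 5 MBD2 transcripts, the first target occurred in 1 and the second in 3.

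The 10 genes covered a wide range of levels, from PEG10 above 100 TPM to PEG3 without a read. PEG10, a coding gene derived from a retrotransposon and expressed from the paternal copy, was the highest in both libraries, at 129 TPM in shMBD2 (125 to 133) and 117 TPM in shNC (113 to 120). MEST, which encodes a hydrolase-like protein of mesoderm, stood at 46.3 TPM in shMBD2 (42.8 to 50.03) and 30.4 TPM in shNC (27.6 to 33.5). GRB10, an adaptor that binds the insulin and IGF1 receptors, stood at 30.01 TPM (28.1 to 32.0) and 24.4 TPM (22.7 to 26.3) in the same order. These were the 3 highest levels in shNC, and in shMBD2 H19 stood above MEST and GRB10.

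H19 was at 51.4 TPM in shMBD2 (47.6 to 55.4) and 16.0 TPM in shNC (13.9 to 18.3). By level it was next after PEG10 in shMBD2, with an interval that overlapped that of MEST, and below GRB10 in shNC, with an interval that overlapped that of PLAGL1. PLAGL1, a zinc finger transcription factor, was at 15.3 TPM (13.8 to 16.9) and 14.1 TPM (12.6 to 15.6). MEG3 was at 14.0 TPM in shMBD2 (12.9 to 15.2), where its interval overlapped that of PLAGL1, and at 3.78 TPM in shNC (3.19 to 4.44), where it overlapped that of SNRPN. SNRPN, which encodes a protein of the small nuclear ribonucleoprotein core, was at 3.67 TPM (2.62 to 5.003) and 3.68 TPM (2.61 to 5.02). The lowest genes with reads, IGF2 and KCNQ1OT1, were not separated by their intervals. IGF2 was at 0.282 TPM (0.129 to 0.535) and 0.321 TPM (0.154 to 0.591), and KCNQ1OT1 was at 0.269 TPM (0.226 to 0.317) and 0.278 TPM (0.234 to 0.328). PEG3, a zinc finger gene of the paternal copy, had 0 counts in both libraries, which allows up to 0.204 CPM in shMBD2 and 0.207 CPM in shNC (3 counts of each library's total).

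**Figure D1:**
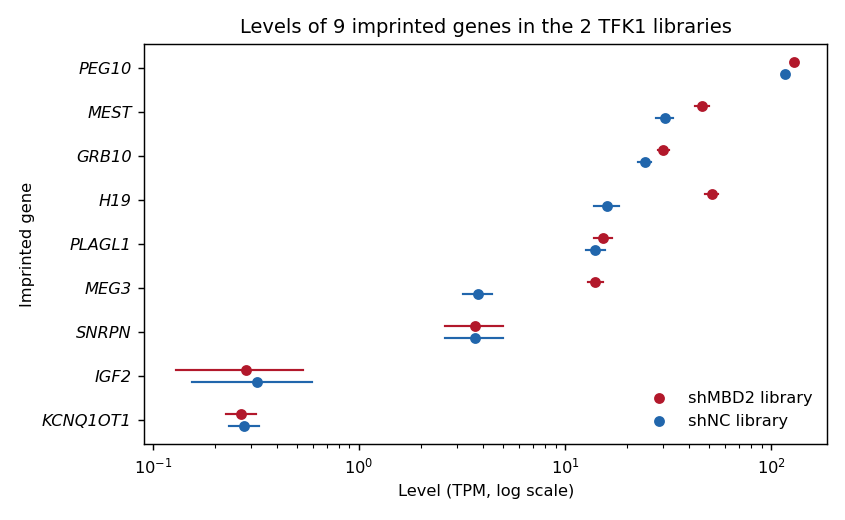
Level in TPM (log scale, x axis) of the 9 imprinted genes with reads (y axis) in the shMBD2 library (red) and the shNC library (blue), with bars for 95% Poisson counting intervals. H19 and MEG3 are the genes whose red and blue points lie furthest apart (51.4 against 16.0 TPM and 14.0 against 3.78 TPM), while the bars of PLAGL1, SNRPN, IGF2 and KCNQ1OT1 overlap.

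The maternally expressed noncoding RNAs H19 and MEG3 were the only 2 of the 9 genes with at least 10 counts whose log2FC lay above 1, and 0 lay below -1. H19 had 690 counts in shMBD2 and 209 in shNC, a log2FC of 1.71 (1.49 to 1.94), or 3.28-fold higher in shMBD2. MEG3 had 559 counts in shMBD2 and 147 in shNC, a log2FC of 1.91 (1.65 to 2.19), or 3.78-fold higher in shMBD2. The interval of each lay wholly above 1, and the 2 intervals overlapped. Over all genes with at least 10 counts, 5.48% lay above 1 and 5.07% below -1. Among genes with at least 100 counts, where 7 of the 10 genes remained, the shares were 1.78% above 1 and 1.06% below -1. H19 had a higher log2FC than 97.8% of the genes with at least 10 counts, and MEG3 than 98.3%.

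MEST had 653 counts in shMBD2 and 418 in shNC, a log2FC of 0.63 (0.46 to 0.82), higher than 89.96% of the genes. For GRB10 the counts were 932 and 740 and the log2FC was 0.32 (0.18 to 0.47). The 4881 and 4298 counts of PEG10 gave a log2FC of 0.17 (0.12 to 0.23), the narrowest interval of the 10 genes. All 3 were higher in shMBD2 by less than 2-fold, with intervals above 0. PLAGL1, at 387 and 347 counts, had a log2FC of 0.15 (-0.064 to 0.36), which holds 0.

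The 3 remaining genes with reads differed by no more than their counting error. SNRPN had 40 counts in shMBD2 and 39 in shNC, a log2FC of 0.027 (-0.65 to 0.70). For KCNQ1OT1 these were 141 and 142 counts, with a log2FC of -0.019 (-0.37 to 0.33). IGF2, the fetal growth factor that shares an enhancer with H19, stood at 9 and 10 counts, with a log2FC of -0.15 (-1.64 to 1.29). At this depth a 2-fold difference in IGF2 was not detectable in either direction. In all, 5 of the 9 intervals lay above 0 (H19, MEG3, MEST, GRB10 and PEG10), 0 lay below and 4 held 0. Over all genes with at least 10 counts, 19.7% of intervals lay above 0 and 18.4% below. An interval narrows with counts, and 7 of the 9 genes had at least 100 counts, as did 11972 of all 17545. The median log2FC was 0.17 for the 9 genes and -0.0082 for all 17545.

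**Figure D2:**
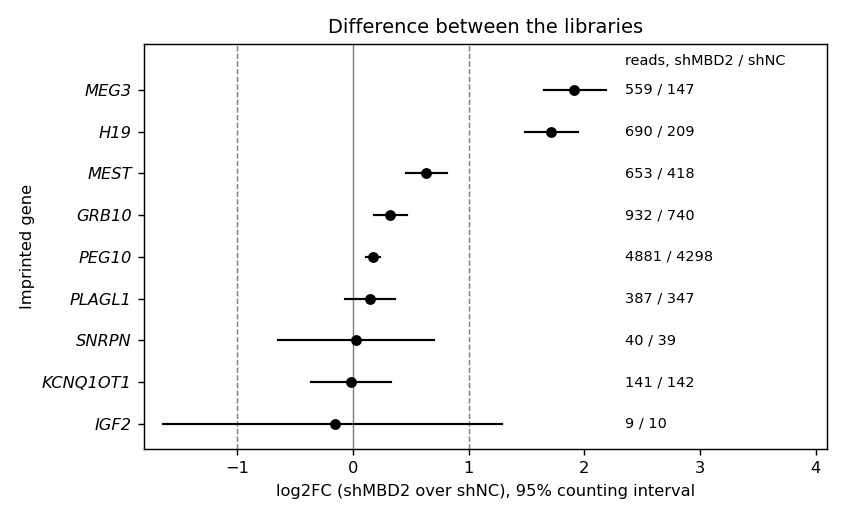
Log2FC of shMBD2 over shNC (x axis) for the 9 imprinted genes with at least 10 counts (y axis), with bars for 95% counting intervals, dashed lines at -1 and 1, and the read counts of both libraries at the right. MEG3 (1.91) and H19 (1.71) lie to the right of the line at 1, and the bar of IGF2, with 9 and 10 counts, is the widest.

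Few long noncoding RNA genes had a log2FC as high as H19 and MEG3. Of 366 such genes with at least 100 counts, 5 had a log2FC above 1, which is 1.37%, and H19 and MEG3 were 2 of these 5. The other 3, named after their values were seen, were LINC00973 (225 and 65 counts, 1.77), UBA6-AS1 (77 and 28 counts, 1.43) and ZNF503-AS2 (89 and 38 counts, 1.21). KCNQ1OT1, the third long noncoding RNA of the imprinted set, lay between -1 and 1. H19 and MEG3 also had the most counts of the 5 genes. UBA6-AS1 and ZNF503-AS2 reached 100 counts only through shMBD2, where they were higher.

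**Figure D3:**
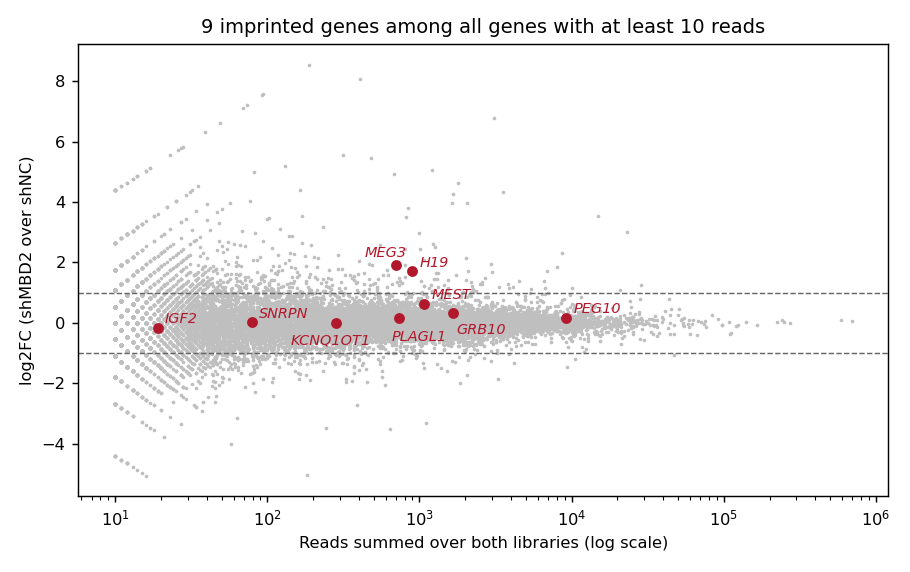
Log2FC of shMBD2 over shNC (y axis) against the reads summed over both libraries (x axis, log scale) for all 17545 genes with at least 10 counts (grey), with the 9 imprinted genes in red and dashed lines at -1 and 1. MEG3 and H19 lie above the line at 1, at 706 and 899 summed reads, where few grey points do, and the other 7 lie between the lines.

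The listed genes that share a cluster with H19 or MEG3 had few reads or none. In the cluster of MEG3, the paternally expressed DLK1, a NOTCH-like inhibitor of differentiation, had 0 counts in both libraries. RTL1, a retrotransposon-derived gene of the same paternal set, had 3 counts in shMBD2 and 0 in shNC, and the deiodinase gene DIO3 had 7 and 6. The other noncoding RNAs of the maternal copy were MEG8, with 8 and 0 counts and a log2FC interval that starts at 0.76, and MEG9, with 5 and 2 counts. Neither gene reached the minimum count alone, and the log2FC interval of MEG9 held 0 (-1.30 to 4.71). Summed, MEG8 and MEG9 had 13 and 2 counts, a log2FC of 2.43 (0.55 to 5.88). The sum reached that minimum only through shMBD2, where it was higher, so no conclusion is drawn from its interval. In the cluster of H19, IGF2 was near the detection limit, and its antisense transcript IGF2-AS was at 0 in both libraries.

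Neighbors by position, named after their values were seen, had small log2FC around MEG3. Within 500 kb of its start, by the positions in the tables, 5 genes had at least 10 counts, and their log2FC ran from -0.25 (SLC25A29) to 0.31 (WARS). BEGAIN, whose start lies at -192 kb from that of MEG3, had 46 and 41 counts and a log2FC of 0.16 (-0.48 to 0.80). All 4 rows that overlap MEG3 were at 0 counts, and no row overlapped H19. Around H19 there were 12 such genes, and their median log2FC was 0.19. Of these, 1 lay above 1 (the pseudogene RPL26P30, with 19 and 8 counts) and 2 below -1 (MRPL23-AS1, with 8 and 26 counts, and AC068580.5, with 2 and 18). The shares over all genes were 5.48% above 1 and 5.07% below -1. The interval of RPL26P30 held 0 (-0.019 to 2.64). MRPL23-AS1 starts 11.6 kb downstream of the start of H19 and had a log2FC of -1.65 (-3.06 to -0.52), opposite in sign to H19. MRPL23, which encodes a protein of the mitochondrial ribosome, had 519 and 452 counts and a log2FC of 0.19 (0.0058 to 0.38).

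In the cluster of MEST the largest difference was in CPA4, which encodes a carboxypeptidase and is counted among the maternally expressed genes. CPA4 had 98 counts in shMBD2 and 20 in shNC, or 6.13 and 1.28 TPM, a log2FC of 2.26 (1.58 to 3.06) and 4.87-fold higher in shMBD2. Its start lies at -193 kb from that of MEST, on the upstream side. It was the only 1 of 11 neighbors within 500 kb of MEST with at least 10 counts that lay past 1 or -1, and the median of the 11 was 0.22. For all genes the shares were 5.48% above 1 and 5.07% below -1. KLF14 and COPG2IT1, other genes of the cluster, were at 0 in both libraries, and MESTIT1 had no row. COPG2, a coat protein gene on the opposite strand that overlaps the row of MEST, had 230 and 184 counts and a log2FC of 0.31 (0.027 to 0.60). Whether the authors counted by strand is not given in the sources used here, so reads of overlapping genes cannot be told apart.

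**Figure D4:**
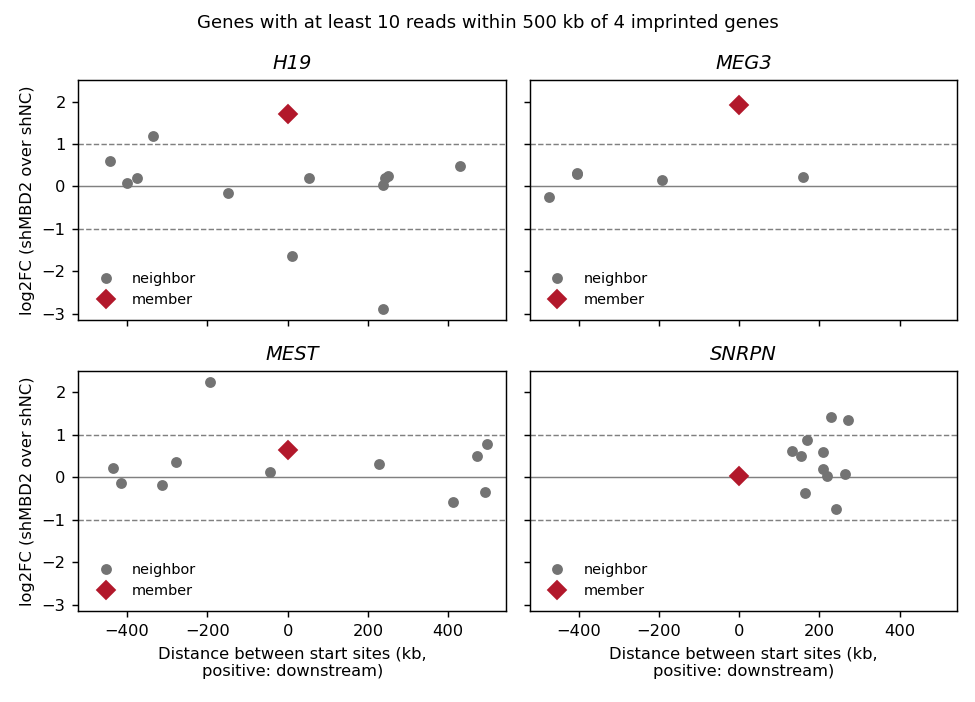
Log2FC of shMBD2 over shNC (y axis) of genes with at least 10 counts within 500 kb of H19, MEG3, MEST and SNRPN (grey points), against the distance between start sites (kb, x axis, positive downstream), with the named gene as a red diamond and dashed lines at -1 and 1. The 5 neighbors of MEG3 lie between -0.25 and 0.31, and a neighbor of MEST above 1 is CPA4 at 2.26.

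The cluster of PEG10 held genes with many reads and differences in both directions. SGCE, a sarcoglycan gene that faces PEG10 from the other strand and is also paternally expressed, had 853 counts in shMBD2 and 1066 in shNC, a log2FC of -0.33 (-0.46 to -0.20). PPP1R9A, a regulatory subunit of protein phosphatase, had 788 and 1080 counts and a log2FC of -0.46 (-0.60 to -0.33). TFPI2, a serine protease inhibitor listed as maternally expressed, had 2714 and 1839 counts and a log2FC of 0.55 (0.47 to 0.64). PEG10 and SGCE thus lay on opposite sides of 0, with intervals that did not overlap. CALCR, the calcitonin receptor gene, had 1 count in each library.

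Around KCNQ1OT1, the noncoding RNA through which the maternal genes of its cluster are silenced on the paternal copy, no gene of the imprinted list lay past 1 or -1. CDKN1C, an inhibitor of cyclin-dependent kinases, had 26 counts in shMBD2 and 16 in shNC, a log2FC of 0.67 (-0.26 to 1.69). PHLDA2, which restrains placental growth, had 95 and 72 counts and a log2FC of 0.39 (-0.066 to 0.85). KCNQ1, the potassium channel gene that KCNQ1OT1 runs antisense to, had 17 and 11 counts, and reads of KCNQ1 and KCNQ1OT1 cannot be told apart where they overlap. SLC22A18, a transporter gene, had 195 and 271 counts and a log2FC of -0.48 (-0.76 to -0.21). Over all genes with at least 10 counts, the shares were 5.48% above 1 and 5.07% below -1. Of the 12 neighbors within 500 kb with at least 10 counts, 1 lay above 1 (RPL26P30) and 1 below -1. The latter, SLC22A18AS, an antisense neighbor of SLC22A18 named after its values were seen, had 10 and 26 counts and a log2FC of -1.34 (-2.60 to -0.29). OSBPL5, a lipid transfer gene, had 257 and 278 counts (-0.12), and KCNQ1DN had 0 in both.

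The row of SNRPN is uncertain, because it overlaps SNURF, with which it shares a transcript, and SNHG14, the host of the small nucleolar RNAs of the region. SNURF had 19 counts in shMBD2 and 12 in shNC, a log2FC of 0.63 (-0.46 to 1.83). SNHG14, named after its values were seen, had 1758 and 1233 counts and a log2FC of 0.50 (0.40 to 0.61). The paternally expressed MKRN3, a ubiquitin ligase gene linked to the timing of puberty, had 79 and 46 counts and a log2FC of 0.76 (0.23 to 1.33). On the maternal side, UBE3A, the ubiquitin ligase gene of Angelman syndrome, had 1297 and 1242 counts (0.054), and ATP10A, a phospholipid flippase gene, had 207 and 363 counts and a log2FC of -0.82 (-1.07 to -0.57). NDN had 1 and 0 counts, and MAGEL2 and NPAP1 had 0 in both libraries. In the cluster of PEG3, the genes ZIM2, USP29 and MIMT1 had 0 counts in both, as did PEG3. Within 500 kb of PEG3, 14 neighbors had at least 10 counts. Of these, 3 lay above 1 and 1 below -1, against 5.48% and 5.07% of all genes. Those above 1, named after their values were seen, were ZNF542 (24 and 3 counts, 2.80), ZNF583 (56 and 21, 1.39) and ZNF582 (36 and 16, 1.14).

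A wider list of 46 further imprinted genes was set beside the 10. Rows were found for 43, and 26 had at least 10 counts, of which 3 lay above 1 and 0 below -1, against 5.48% and 5.07% of all genes. With at least 100 counts, 1 of 18 lay above 1 (CPA4), against 1.78% of all genes. CPA4, with 98 and 20 counts, reached 100 counts only through shMBD2, where it was higher. With at least 1 count, 7 of 33 lay above 1 and 1 below -1, against 4523 and 4303 of 27295 genes. Beside CPA4, those above 1 with at least 10 counts were DIRAS3, a growth-inhibiting small GTPase, and WT1-AS, antisense to WT1. Both had few reads and were named after their values were seen. DIRAS3 had 14 counts in shMBD2 and 1 in shNC, a log2FC of 3.27 (1.08 to 9.20), and WT1-AS had 16 and 3, a log2FC of 2.23 (0.60 to 4.83). Of the 26 genes, 5 had an interval above 0, 5 below and 16 held 0, and their median log2FC was -0.0074. GNAS, which encodes a G protein alpha subunit and was the highest of the list by TPM (292 and 299), had 6737 and 6711 counts, a log2FC of -0.0033 (-0.052 to 0.046). After GNAS, TFPI2 (194 and 135 TPM) and SGCE (79.7 and 102 TPM) were the highest.

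Taken by the allele that textbooks give as expressed, the 10 genes and the wider list did not split into opposite directions. Of 14 maternally expressed genes with at least 10 counts, 3 lay above 1 (CPA4, MEG3 and H19), with a median log2FC of 0.22, 8 positive and 6 negative. Of 17 paternally expressed genes, 2 lay above 1 (DIRAS3 and WT1-AS), with a median of 0.15, 10 positive and 7 negative. DIRAS3 (14 and 1 counts) and WT1-AS (16 and 3 counts) reached 10 counts only through shMBD2, where they were higher. With at least 100 counts, MEG3 and H19 lay above 1 among 7 genes of the set, and CPA4 among 18 of the wider list. Over all genes with at least 100 counts, the share above 1 was 1.78%. These 3 genes are listed as maternally expressed, and CPA4 (98 and 20 counts) reached 100 counts only through shMBD2. A link with the expressed allele was not tested. The 4 genes whose expressed allele depends on the isoform lay between -1 and 1. All 35 together had 5 above 1, 0 below -1 and a median of 0.054. Over all genes with at least 10 counts, 5.48% lay above 1 and 5.07% below -1.

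**Figure D5:**
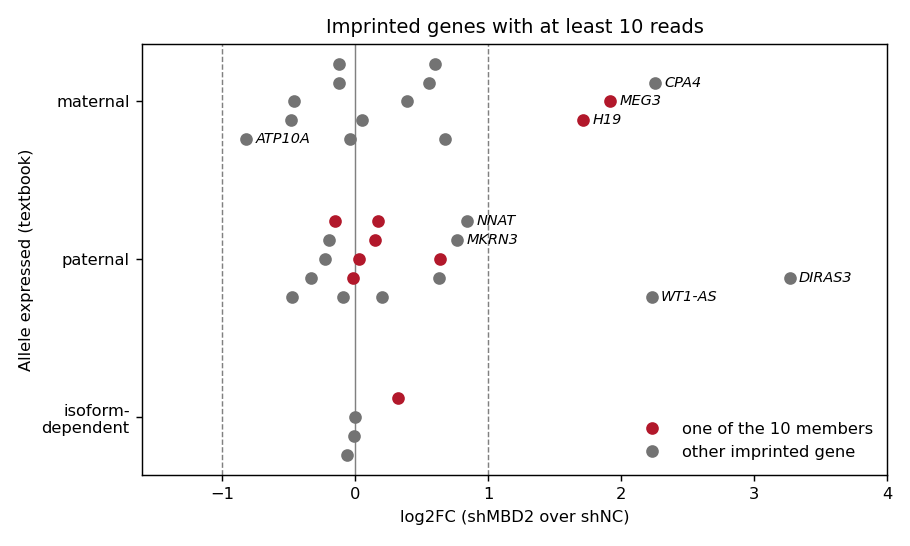
Log2FC of shMBD2 over shNC (x axis) for the 35 imprinted genes with at least 10 counts, grouped by the expressed allele (y axis, points spread vertically only to be seen apart), with the 10 genes of the set in red (9 of them drawn), others in grey and dashed lines at -1 and 1. The points above 1 are CPA4, MEG3 and H19 (maternal) and DIRAS3 and WT1-AS (paternal, with at most 16 counts in a library), and no point lies below -1.

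IGF2 acts through the IGF1 and insulin receptors, is cleared by IGF2R and is held by IGF-binding proteins. Of 17 genes of this pathway, 15 had at least 10 counts. Of these, 0 lay above 1 and 1 below -1, against 5.48% and 5.07% of all genes. The ligands were scarce, as IGF2 was, with IGF1 at 1 and 3 counts and INS at 0 and 1. The 3 highest genes of the list by TPM were binding proteins. IGFBP4 had 2124 TPM in shMBD2 and 2301 in shNC (log2FC -0.087), IGFBP3 had 341 and 638 TPM (log2FC -0.88, -0.93 to -0.82), and IGFBP6 had 90.9 and 86.9 TPM (log2FC 0.094). The gene below -1, IGFBP5, had 4 and 16 counts (log2FC -1.88, -4.05 to -0.38) and was named after its values were seen. In the list, 4 intervals lay above 0, 6 below and 5 held 0, with a median of -0.028. Over all genes, 19.7% of intervals lay above 0 and 18.4% below. The depths are unlike, since 14 of the 15 had at least 100 counts, as did 11972 of the 17545 genes.

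A list of 18 genes held those that copy, bind or protect methylation at imprinted control regions, together with the TET enzymes that remove it. Of these, 14 had at least 10 counts and 0 lay past 1 or -1, against 5.48% above and 5.07% below for all genes. Their log2FC lay between -0.29 (ZNF445) and 0.61 (DNMT3B), with a median of 0.0025. TRIM28, the co-repressor recruited to imprinted control regions by zinc finger proteins, had 7092 counts in shMBD2 and 5729 in shNC, a log2FC of 0.30 (0.25 to 0.35). DNMT1, the maintenance methyltransferase, had 2476 and 2270 counts (log2FC 0.12, 0.034 to 0.20), and CTCF, the insulator protein of the H19 control region, had 1552 and 1472 (log2FC 0.067, -0.036 to 0.17). ZFP57, which binds methylated control regions, had 8 and 0 counts and a log2FC interval that starts at 0.76, and DPPA3 had 0 in both. In this list 4 intervals lay above 0, 1 below and 9 held 0, against 19.7% above and 18.4% below over all genes. The depths are unlike, since all 14 had at least 100 counts, as did 11972 of the 17545 genes, and intervals narrow with counts.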

How the data were processed

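RNA of 2 TFK1 libraries, shMBD2 and shNC, was analyzed. The authors deposited a table of read counts (whole numbers, not normalized) and a table of TPM. Per the labels, their processing notes name fastp, HISAT2 2.1.0, featureCounts, DESeq 1.18.1 and GRCh38.p13. The tables repeat the values of a symbol on each of its Ensembl identifiers, so repeats of a symbol were dropped. The tables hold 0 columns of other samples. MEST and SNURF were listed under 2 identifiers with the same values.

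Counts were scaled with TMM (edgeR 4.0.16, R 4.3.3), and log2FC was computed with a prior count of 0.5 for genes with at least 10 counts in sum. No test was possible with 1 library per condition. The 95% intervals (scipy 1.17.1) were Clopper-Pearson for the share of a gene's reads in shMBD2 and Poisson for TPM. Both are exact and describe counting error alone. A gene was counted as past a limit at a log2FC above 1 or below -1, and a count of 3 served as the upper limit that a count of 0 allows. TPM was used for levels between genes. The scripts were tested on simulated counts.

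The members and gene lists were chosen with earlier results of these data known. Named were the 10 genes, MBD2, genes of their clusters, list genes past 1 or -1 with at least 30 counts in the higher library, and the 3 highest of each list by TPM. Alternatives were DESeq2 1.42.0 size factors, total counts, log2 of TPM plus 0.1 or 1, a prior count of 2, and minimum counts of 1 or 100.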

Additional observations from a re-analysis of the deposited data

How the results depend on the processing

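H19 and MEG3 were the members past 1 or -1, and the count of members stayed at 2 under all 7 alternatives. Across the 5 other scalings and priors, log2FC ran from 1.63 to 1.72 for H19, 1.65 to 1.92 for MEG3, 0.59 to 0.64 for MEST, 0.29 to 0.33 for GRB10, 0.15 to 0.18 for PEG10, 0.11 to 0.16 for PLAGL1, and, in settings added after seeing the data, 1.64 to 2.26 for CPA4. SNRPN was slightly below 0 with both TPM settings (-0.00043 at the lowest), within its counting interval. KCNQ1OT1 and IGF2 stayed below 0. Counts over lists moved with the filter on low counts and with the TPM pseudocount. With at least 1 count, the numbers past 1 or -1 were 8 of 33 other imprinted genes and 8826 of 27295 genes in all. They were 3 of 17 for the IGF2 pathway and 1 of 17 for the imprint maintenance list. With at least 10 counts these were, in the same order, 3 of 26, 1851 of 17545, 1 of 15 and 0 of 14. With at least 100 counts, 1 of 18 other imprinted genes, 0 of 14 of the IGF2 pathway and 340 of 11972 genes lay past 1 or -1. With log2 of TPM plus 1, it was 0 of 15 of the IGF2 pathway and 714 of 17545 genes. No paired analysis was possible because shMBD2 and shNC hold 1 library each, and no replicate could be left out. Depth limits IGF2, PEG3, MEG8, DIRAS3 and WT1-AS, and variation from culture to culture was not measured.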
